A study of Gallus gallus with 40 samples.

Results

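The chorioallantoic membrane of the chicken egg was compared between male and female embryos after 15 days of incubation. The comparison rests on the 10 day 15 male and 10 day 15 female libraries among the 40 libraries of the study, 1 embryo each. All embryos were Ross 308 broilers, a commercial meat chicken, and the labels name no genetic change and no treatment apart from storage of the eggs in the cool before incubation. Males carry ZZ and females ZW sex chromosomes, and sex was called by a molecular test on a piece of the embryo's neck. Messenger RNA of the rinsed and frozen membrane was sequenced. The 20 libraries from day 11 (10 males and 10 females) serve only to ask whether a sex difference was of the same size at that age. Levels are FPKM as the authors deposited them, that is, fragment numbers divided by the length of the gene and the size of the library.

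The chorioallantoic membrane lines the shell from inside. It is the embryo's organ of gas exchange, takes up calcium from the shell and reabsorbs salt and water from the allantoic fluid. In birds the male has a pair of Z chromosomes and the female a single Z with a small, degenerate W. Birds are known to balance the dose of Z genes gene by gene rather than by silencing a whole chromosome, so that many Z genes stay higher in males. W genes are mostly surviving copies of Z genes, and the Z and W copies of such a pair are called gametologs.

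The deposited table holds 26152 gene models, of which 15746 had at least 0.5 FPKM in 5 of the 20 libraries and were tested. By the deposited annotation 13826 of them lie on autosomes, 674 on Z, 50 on W, 16 on the mitochondrial genome and 1180 on no placed chromosome. Differences are male minus female on the scale log2(scaled FPKM + 0.1), on which weakly expressed genes appear to change less than they do, and were tested with limma at a Benjamini-Hochberg adjusted p of 0.05 over all tested genes. On this scale 1 is a doubling in males. At that threshold 545 genes were called, 3.46% of those tested, with 411 higher in males (2.61%) and 134 higher in females (0.851%).

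The depth that the values imply was 30.9 to 49.2 M reads in females and 32.5 to 38.7 M in males. Markers of the membrane's own cells were present in all 20 libraries, with medians in females and males of 625 and 523 FPKM for EPCAM (epithelium), 341 and 336 for PECAM1 (endothelium), 871 and 892 for ACTA2 (smooth muscle) and 1609 and 1986 for COL1A1 (stroma). Of the gonadal genes looked at, NR5A1 stayed at or below 0.178 FPKM. FOXL2 and AMH were above 0 in all 20 libraries and reached 1.44 and 1.60 FPKM. Haemoglobin transcripts took 4.25 ± 1.17% of summed FPKM in females and 3.84 ± 1.54% in males (SD, n = 10 each; permutation p = 0.515, two-sided, 100000 resamples). A pair of libraries stood apart from their groups. Female 83 had 420.0 FPKM of the pancreatic enzyme gene CPA1 against at most 4.53 in the other females, 15.4 FPKM of the endothelial receptor gene KDR against at least 28.97 in the others, and the lowest mitochondrial share (7.63%). CELA1, a further pancreatic enzyme gene, stayed at or below 0.199 FPKM in all 20 libraries and was highest in female 54. Male 81 had the highest haemoglobin share (7.61%, against at most 4.66% in the other males). In a bulk sample, fewer cells of a type and less RNA per cell cannot be told apart. Leaving aside small RNA genes inside their hosts, of the genes described below ITGA2B, COX7C and the non-coding ENSGALG00000050012 overlap another model on the same strand, and HSPB3, NEDD4L, FBN2, AGTR2, PLN, SMC6, GLMN and SPIN1W one on the opposite strand, so the assignment of some of their reads is uncertain.

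The W chromosome separated the sexes without overlap, in accord with the sex labels of all 20 libraries. Summed over its 124 gene models, W transcripts reached 1467 ± 117 FPKM in females and 6.31 ± 1.82 in males (SD, n = 10 each). Of the 124 models 74 were not tested. Of the 50 tested W genes (100% called), 49 were higher in females (98%) and 1 in males (2%). For 46 of the 50 every female lay above every male (92%, against 0.483% of all tested genes). Only 2 of the 50 had a mean of at least 0.5 FPKM in males, so nearly all passed the filter through the female libraries. These shares were thus largely fixed by the filter and are a description. Of the 50, 11 were listed at 0 in all 10 males.

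HINTW, the W-borne and multiplied relative of the nucleotide-binding protein gene HINT1 (ENSGALG00000035998, chromosome W, 1840623 to 1896773), was the most abundant W gene. It ranged over 521 to 876 FPKM in females (median 746) and 0.205 to 3.44 FPKM in males (median 0.864). Its difference was -9.48 ± 0.30 (SE; adjusted p = 1.08e-16). The model ENSGALG00000048286 (117 to 157 FPKM in females, 0 to 1.17 in males) lies inside HINTW on the opposite strand, and reads of the pair cannot be assigned with certainty because the strand setting of the counting is not given in the sources used here. HNRNPKL, the W copy of the RNA-binding protein gene HNRNPK (ENSGALG00000040086, chromosome W, 4704235 to 4724025), stood at 44.9 to 58.2 FPKM in females (median 50.4) and at 0.0129 to 0.305 FPKM in males (median 0.0979), so that even the highest male was far below the lowest female. Its difference was -8.14 ± 0.20 (adjusted p = 6.26e-19).

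Other abundant W genes carry no symbol in the annotation. ENSGALG00000043758 had 116 to 163 FPKM in females (median 143) and 0.0234 to 0.857 in males (median 0.123). ENSGALG00000040263 had 69.96 to 101 FPKM in females (median 79.8) and 0 to 0.3897 in males (median 0.146). For ENSGALG00000041221, ENSGALG00000033705 and ENSGALG00000048307 the female medians were 52.3, 34.8 and 17.98 FPKM and the highest male values 0.261, 0.101 and 0.162. In all of these models the sexes were far apart. The exception was ENSGALG00000047434 (chromosome W, 3570685 to 3580610), singled out after its values were seen. It stood at 1.31 to 3.67 FPKM in males (median 2.84) and 1.01 to 2.23 in females (median 1.84), with overlapping groups, and was higher in males by 0.57 ± 0.14 (adjusted p = 0.0186). At day 11 its difference was 0.73 (adjusted p = 3.32e-05). Only 2 tested W models had a mean of at least 0.5 FPKM in males, this one and HINTW. Males carry no W chromosome, so ENSGALG00000047434 cannot be read as a W gene expressed in males. The source of its male reads was not tested.

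**Figure D1:**
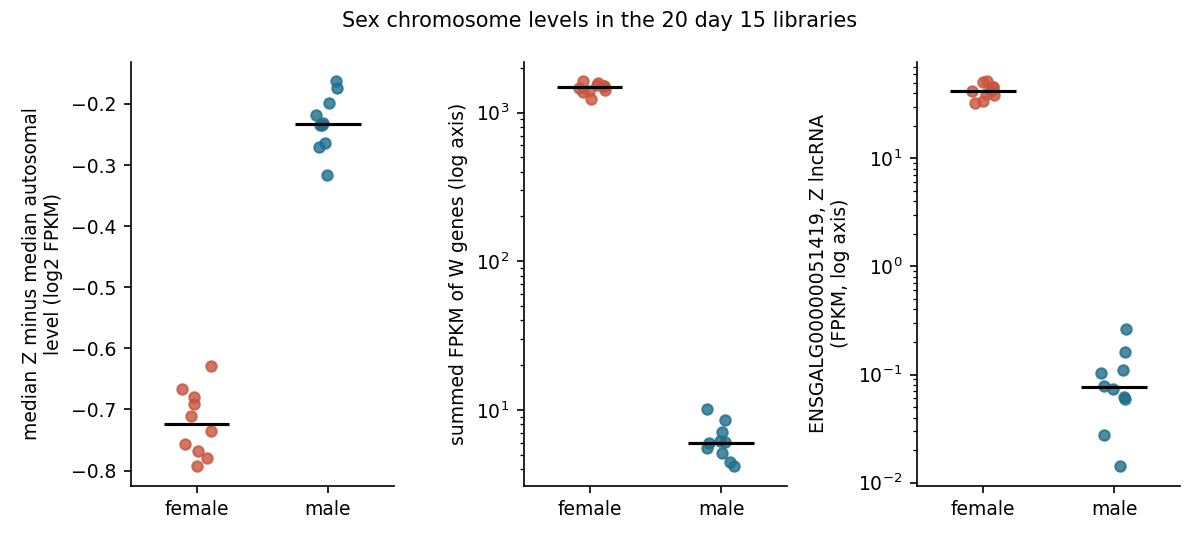
The plot shows each of the 20 day 15 libraries as a point, 10 females and 10 males, with a bar at the group median: the median Z level minus the median autosomal level (log2 FPKM, left), the summed FPKM of W genes (log axis, centre) and the Z-borne long non-coding RNA ENSGALG00000051419 (FPKM, log axis, right). Males lay between -0.32 and -0.16 and females between -0.79 and -0.63 for the Z level, and the sexes were likewise apart in the other panels.

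The SPIN1 pair was the only gametolog pair that the annotation's symbols identify in both copies. SPIN1 encodes spindlin, a chromatin protein that reads histone methylation. SPIN1Z (ENSGALG00000014916, chromosome Z, 43184133 to 43259306) stood at 118 to 135 FPKM in males (median 126) and 62.1 to 78.1 in females (median 71.3), and every male was above every female. SPIN1W (ENSGALG00000040704, chromosome W, 5944392 to 6052596) stood at 11.3 to 15.8 FPKM in females (median 13.8) and at no more than 0.0426 in males. The Z copy alone differed by 0.81 ± 0.04 (adjusted p = 4.83e-13). Summed over both copies the level was 125.5 ± 5.01 FPKM in males and 85.0 ± 4.62 in females (SD, n = 10 each), a difference of 0.55 ± 0.04 (95% interval 0.48 to 0.63, adjusted p = 1.37e-10). In females the median was 71.3 FPKM for the Z copy and 13.8 for the W copy. The summed level remained lower in every female than in every male. Near-identical copies may share reads, so the division between SPIN1Z and SPIN1W is less certain than their sum. CHD1Z, a chromatin remodeller gene used to sex birds, stood at 10.5 to 11.9 FPKM in males (median 11.1) and 6.23 to 8.31 in females (median 7.41). SMAD2Z, a transducer of TGF-beta signals, stood at 20.8 to 24.7 FPKM in males (median 23.4) and 12.2 to 15.5 in females (median 14.4). Males and females did not overlap for either gene, and the differences were 0.59 ± 0.05 and 0.69 ± 0.04 (adjusted p = 3.26e-09 and 8.16e-11).

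Z genes as a class were higher in males, by less than a doubling. Of 674 tested Z genes 57.1% were called, against 3.46% of all genes: 368 were higher in males (54.6%), 17 were higher in females (2.52%) and 289 were not called. The median difference was 0.46 (quartiles 0.18 and 0.71), against a median of -0.02 on the autosomes (quartiles -0.09 and 0.05), and 87.5% of Z genes against 42.5% of autosomal genes had a positive difference. With each library left out in turn, 328 of the 368 and 12 of the 17 stayed called in all 20 fits.

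The same shift was seen library by library. The median log2 level of Z genes minus that of autosomal genes was -0.23 ± 0.05 in males and -0.72 ± 0.05 in females (SD, n = 10 each). The difference of 0.49 had a permutation p of 2e-05, the smallest that 100000 two-sided resamples can give, and the groups did not overlap. Over the 530 Z and 11233 autosomal genes with at least 1 FPKM in every library it was 0.47. Without female 83 it was 0.48 (exact permutation p = 2.17e-05).

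**Figure D2:**
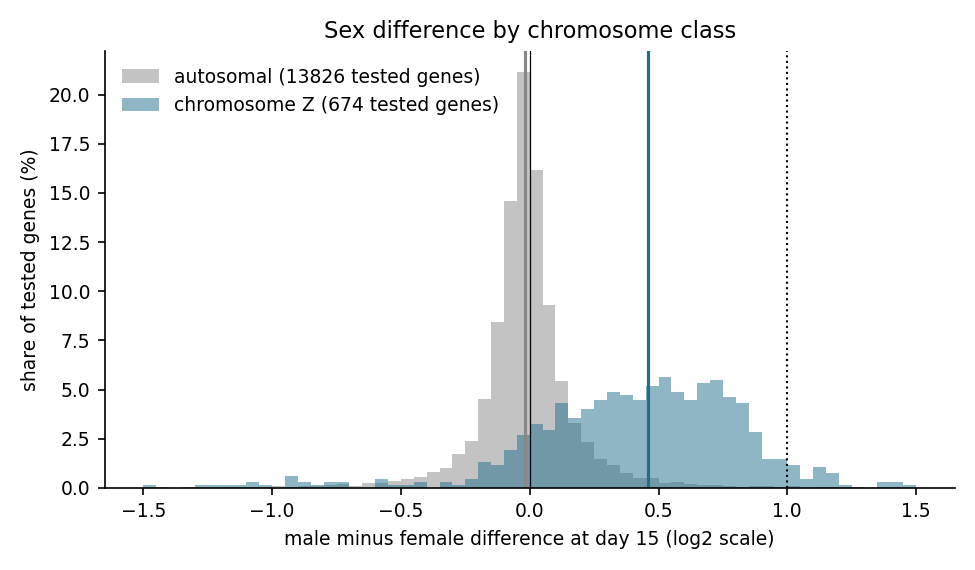
The histogram gives the share of tested genes (vertical axis, %) by their male minus female difference at day 15 (horizontal axis, log2 scale, bins of 0.05) for 13826 autosomal and 674 Z genes. Solid vertical lines mark the medians (-0.02 and 0.46) and a dotted line marks a doubling in males; 13 autosomal and 10 Z genes beyond 1.5 in either direction are not drawn.

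Single Z genes mostly lay between equal levels and a doubling, and some lay outside. For 359 of the 674 genes the 95% interval of the difference lay wholly between 0 and 1, that is, between equal levels and a doubling. For 105 it held 1 and not 0, for 163 it held 0 and not 1, and for 17 it held both. It lay wholly below 0 for 27 genes and wholly above 1 for 3, namely TMOD1 and the short microRNA genes gga-mir-1583 and gga-mir-1756a. The share called higher in males was larger among genes of higher level, from 20.6% of the 68 genes with a mean log2 level below 0 to 71.9% of the 32 genes at 6 or above. The median difference did not follow that order. It was 0.55 in the lowest and 0.67 in the highest of these strata, and 0.39 to 0.49 in the 3 between, and the median SE fell from 0.29 to 0.08 between the ends. Protein-coding genes (593 tested) had a median of 0.44 and long non-coding RNAs (49 tested) one of 0.50.

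TMOD1, which encodes tropomodulin, a cap of actin filaments (ENSGALG00000002125, chromosome Z, 70995461 to 71015584), had the largest male excess among Z genes with a symbol and a mean log2 level of at least 1. It stood at 9.07 to 15.1 FPKM in males (median 12.6) and 3.24 to 4.23 in females (median 3.77). Every male was above every female by a wide margin, and the difference was 1.61 ± 0.09 (95% interval 1.43 to 1.79, adjusted p = 2.92e-12). The microRNA gene gga-mir-1583 lies in XPA, a DNA repair gene, on the same strand, so its reads cannot be told from those of its host; its difference was 1.43 ± 0.18. A pair of small nucleolar RNA genes named SNORD58, inside the ribosomal protein gene RPL17, also came within the naming rule and is described with its host below. PPIC, the cyclophilin C gene, a peptidyl-prolyl isomerase of the secretory pathway (ENSGALG00000005346, chromosome Z, 81573781 to 81579815), stood at 43.4 to 72.3 FPKM in males (median 51.03) and 20.9 to 32.9 in females (median 25.01). Its lowest male lay above its highest female, and the difference was 1.06 ± 0.10 (adjusted p = 1.03e-07).

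SRFBP1, a cofactor of serum response factor (ENSGALG00000005316, chromosome Z, 81135284 to 81191167), stood at 11.1 to 15.7 FPKM in males (median 13.3) and 5.28 to 8.09 in females (median 6.24). MRPL50, a protein gene of the mitochondrial ribosome (ENSGALG00000015543, chromosome Z, 65339780 to 65340558), stood at 39.8 to 55.6 FPKM in males (median 47.7) and 20.03 to 26.8 in females (median 22.9). The sexes were apart for both genes, and both lay at a doubling within their error, with differences of 1.03 ± 0.07 and 0.99 ± 0.07. CHRNA6, a nicotinic acetylcholine receptor subunit gene, was also apart at 2.36 to 4.18 FPKM in males (median 2.99) and 0.536 to 2.08 in females (median 1.33) (difference 1.12 ± 0.17, adjusted p = 0.000111). The protease inhibitor gene SPINK4 (5.72 to 13.4 FPKM in males (median 11.6), 3.22 to 7.65 in females (median 5.49)) and the small heat shock protein gene HSPB3 (2.01 to 7.85 FPKM in males (median 3.698), 0.313 to 2.79 in females (median 1.44)) overlapped between the sexes. They were still called, with differences of 1.03 ± 0.16 and 1.47 ± 0.32 (adjusted p = 0.000111 and 0.00688).

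At the other end stood well-expressed Z genes with equal levels in the sexes. GHR, the growth hormone receptor gene (ENSGALG00000014855, chromosome Z, 13428369 to 13558411), stood at 13.5 to 23.2 FPKM in males (median 20.2) and 16.2 to 24.98 in females (median 19.4), and the ranges overlapped almost completely. Its interval of -0.19 to 0.18 excludes a doubling. EGFLAM, which encodes the matrix protein pikachurin, stood at 57.04 to 76.7 FPKM in males (median 68.5) and 54.9 to 78.1 in females (median 68.2), with an interval of -0.11 to 0.12. NNT, the mitochondrial nicotinamide nucleotide transhydrogenase gene, stood at 24.2 to 38.6 FPKM in males (median 31.9) and 24.4 to 38.6 in females (median 31.1), with an interval of -0.17 to 0.22. The intervals of UHRF2 (a ubiquitin ligase that binds modified DNA, -0.11 to 0.13), TMED7 (a carrier of secretory cargo, -0.11 to 0.16) and FBP1 (fructose bisphosphatase, -0.28 to 0.29) likewise held 0 and excluded a doubling. In FBP1 and TMED7 female 83 was the highest female, at 66.9 and 53.1 FPKM, and in GHR male 81 was the lowest male, at 13.5.

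The 17 Z genes higher in females lay mostly in a single stretch of the chromosome. Between 20 and 30 Mb 108 genes were tested, of which 44 were higher in males and 14 in females, with a median difference of 0.27. Over the other 566 Z genes, 324 were higher in males and 3 in females, with a median of 0.50. In steps of 5 Mb the median was lowest between 25 and 30 Mb, at 0.02 over 40 genes (7 higher in males, 9 in females). It was 0.36 to 0.76 in the other steps, which held 12 to 68 genes each. Where the stretch begins and ends was chosen with these values known, so the counts are a description. The chicken Z is known to carry a male hypermethylated region from which non-coding RNA is made in females; the annotation does not name it, and whether the models below belong to it was not tested.

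**Figure D3:**
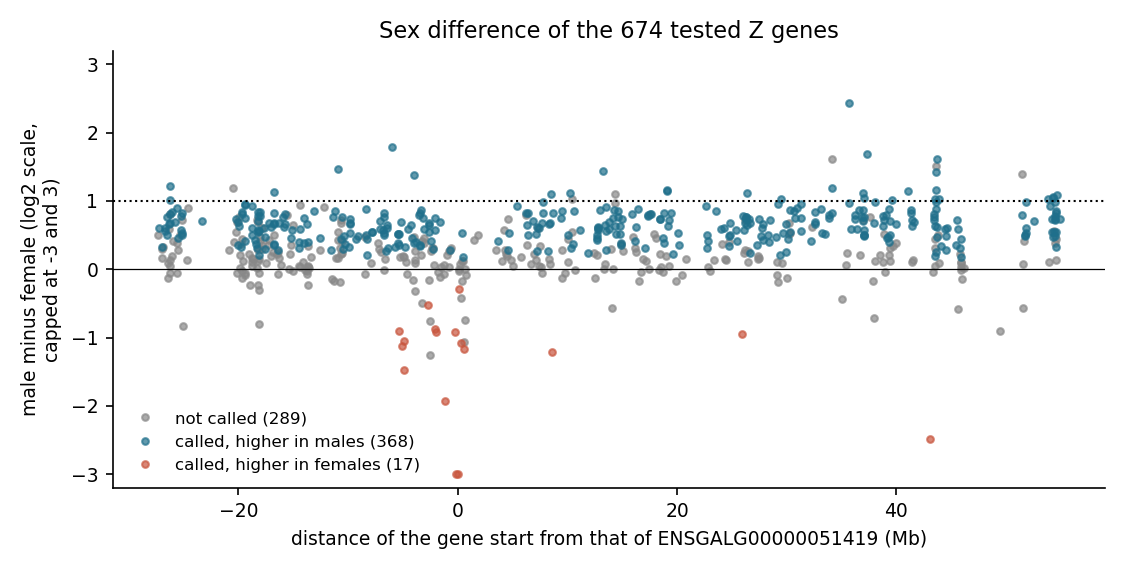
The plot shows the male minus female difference of each of the 674 tested Z genes (vertical axis, log2 scale, capped at -3 and 3) against the distance of its start from that of the female-specific long non-coding RNA ENSGALG00000051419 (horizontal axis, Mb). Blue points are the 368 genes called higher in males, red the 17 called higher in females and grey the 289 not called, and most red points lie close to distance 0; a dotted line marks a doubling.

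The leading gene was ENSGALG00000051419, a long non-coding RNA (chromosome Z, 27317307 to 27383989), which stood at 32.7 to 52.3 FPKM in females (median 42.3) and 0.0141 to 0.265 in males (median 0.0761). The difference was -7.84 ± 0.16 (adjusted p = 5.27e-20), on the order of that of a W gene. Its neighbour ENSGALG00000050012, also a long non-coding RNA (chromosome Z, 27177112 to 27307449), stood at 2.93 to 4.93 FPKM in females (median 4.04) and 0 to 0.227 in males (median 0.0106), with a difference of -5.02 ± 0.20. Neither gene overlapped between the sexes, and their day 11 differences were -7.77 and -5.12. With every male below 0.5 FPKM, both passed the filter only through the female libraries. Their separation at day 15 was thus largely fixed by the filter and is a description. A further non-coding RNA of the stretch, ENSGALG00000046481, stood at 5.84 to 13.2 FPKM in females (median 7.399) and 2.31 to 5.39 in males (median 3.56), without overlap (difference -1.16 ± 0.16, adjusted p = 1.42e-05).

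Some protein-coding genes of the stretch were also higher in females. THBS4, which encodes the matrix protein thrombospondin-4 (ENSGALG00000014804, chromosome Z, 22015511 to 22053757), stood at 1.91 to 4.83 FPKM in females (median 2.76) and 1.05 to 1.81 in males (median 1.55), with every female above every male. Its difference was -0.91 ± 0.15 (adjusted p = 0.000333). HOMER1, a scaffold gene of glutamate receptor complexes (ENSGALG00000014813, chromosome Z, 22241850 to 22331531), stood at 0.973 to 1.94 FPKM in females (median 1.501) and 0.152 to 1.14 in males (median 0.757), and overlapped slightly (difference -1.13 ± 0.25, adjusted p = 0.00843). ENSGALG00000004518, protein-coding and without a symbol, stood at 5.44 to 15.6 FPKM in females (median 9.03) and 1.78 to 10.04 in males (median 2.84). Its ranges overlapped, and the difference was -1.47 ± 0.27 (adjusted p = 0.000768). Further female-higher genes, named here outside the naming rule, included AK3 (mitochondrial adenylate kinase, 8.602 ± 0.652 FPKM in females and 7.06 ± 0.412 in males), SLC1A1 (a glutamate transporter, 10.4 ± 3.34 and 5.69 ± 2.23), MAP1B (a microtubule-associated protein, 0.854 ± 0.2101 and 0.425 ± 0.181), RLN3 (a relaxin-family peptide, 2.61 ± 1.06 and 1.29 ± 0.6003), DMGDH (a choline-pathway dehydrogenase, 1.79 ± 0.526 and 0.893 ± 0.5705) and ARHGEF28 (a guanine nucleotide exchange factor, 2.32 ± 0.574 and 1.58 ± 0.324; mean ± SD, n = 10 each). From AK3 to ARHGEF28, in the order given, the limma adjusted p was 0.00178, 0.0335, 0.00593, 0.0493, 0.00846 and 0.0343, so several lay close to the threshold. Of all 17 Z genes higher in females, 12 stayed called in all 20 fits that leave out a library. Some calls inside the stretch were therefore lost as well. Not every gene in the stretch leaned to females. Calls in the male direction were more frequent in the stretch, at 44 against 14. CENPK, CENPH and CDK7, described below as higher in males, lie in it. So do UHRF2, described above with equal levels, and JAK2, a cytokine-signalling kinase gene, at 15.2 ± 1.66 FPKM in males and 14.3 ± 1.99 in females (adjusted p = 0.795).

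Outside the stretch, 3 genes were higher in females, of which 2 lost their call in many of the fits that leave out a library. ALDH1A1, a retinoic acid synthesis gene (ENSGALG00000015147, chromosome Z, 35905444 to 35958334), stood at 1.27 to 6.103 FPKM in females (median 2.12) and 0.428 to 2.94 in males (median 0.843), with a difference of -1.21 ± 0.32 (adjusted p = 0.0343). It was called in 10 of 20 fits that leave out a library each and not without female 83 (adjusted p = 0.0648). ENSGALG00000046715 was called in 6 of the 20 fits (difference -2.49 ± 0.67, adjusted p = 0.0394, and 0.0759 without female 83). ENSGALG00000044797 stood at 4.06 ± 1.21 FPKM in females and 2.05 ± 0.484 in males (mean ± SD, n = 10 each; adjusted p = 0.000149). DMRT1, the Z-borne testis-determining gene, was below the level needed for a test, at 0.0400 to 0.372 FPKM in males (median 0.127) and 0.0198 to 0.573 in females (median 0.293).

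In 3 lists of basic cell functions the counts can be read against those of their chromosomes, where 54.6% of all tested Z genes were higher in males and 0.492% of all tested autosomal genes were called; whether these lists differ from other genes was not tested. Among cytosolic ribosomal protein genes, 3 of the 4 tested Z members were higher in males and 0 of 58 autosomal members were called by limma (0 also at an unadjusted p under 0.05), with an autosomal median of -0.03. RPS6, a small-subunit protein gene (ENSGALG00000015082, chromosome Z, 33736390 to 33740880), stood at 2241 to 3069 FPKM in males (median 2352) and 1220.0 to 1541 in females (median 1358). RPL17, a large-subunit protein gene (ENSGALG00000036774, chromosome Z, 1077920 to 1081538), stood at 974 to 1417 FPKM in males (median 1173) and 556 to 761 in females (median 624), and RPS23, of the decoding centre (ENSGALG00000015617, chromosome Z, 63563409 to 63565254), at 1969 to 2771 FPKM in males (median 2202) and 1085 to 1509 in females (median 1305). For each of the 3 every male was above every female, and male 81 was the highest. Their differences were 0.82 ± 0.07, 0.80 ± 0.08 and 0.79 ± 0.08 (adjusted p = 5.44e-09, 1.19e-07 and 8.3e-08). The fourth Z member, RPL37, stood at 476 ± 60.2 FPKM in males and 461 ± 36.6 in females (mean ± SD, n = 10 each), and its interval of -0.13 to 0.19 excludes the differences of the 3 others. The SNORD58 genes inside RPL17 cannot be told from their host here. Their differences were 1.22 ± 0.27 (ENSGALG00000021750) and 1.02 ± 0.27 (ENSGALG00000024979). ENSGALG00000024979 was called in 7 of 20 fits that leave out a library each, and not without female 83 (limma adjusted p = 0.0616). The W model ENSGALG00000040263, described above, also holds genes named SNORD58 on its strand. Whether it shares reads with RPL17 or with these SNORD58 genes was not tested.

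In the oxidative phosphorylation list all 3 tested Z members were higher in males and 0 of 29 autosomal members were called by limma (1 at an unadjusted p under 0.05). NDUFS4, a subunit gene of complex I (ENSGALG00000028026, chromosome Z, 16103569 to 16149274), stood at 51.99 to 74.9 FPKM in males (median 64.9) and 27.5 to 40.4 in females (median 34.8). COX7C, a subunit gene of cytochrome c oxidase (ENSGALG00000027963, chromosome Z, 61440581 to 61443244), stood at 184 to 271 FPKM in males (median 219) and 98.6 to 142 in females (median 124), and NDUFAF2, an assembly factor of complex I (ENSGALG00000027564, chromosome Z, 18970571 to 19017369), at 22.4 to 30.9 FPKM in males (median 24.1) and 14.3 to 19.3 in females (median 18.1). None of the 3 overlapped between the sexes, and the differences were 0.86 ± 0.08, 0.83 ± 0.08 and 0.50 ± 0.07. The 16 tested genes of the mitochondrial genome were not called (0 by limma, 0 at an unadjusted p under 0.05), with a median of -0.02.

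In the cell cycle list 6 of 6 tested Z members were higher in males (median 0.64, against 0.46 and 54.6% for all tested Z genes), and 0 of 31 autosomal members were called by limma (0 at an unadjusted p under 0.05; median -0.01), against 0.492% of all autosomal genes. SMC2, a condensin subunit gene (ENSGALG00000015691, chromosome Z, 66668700 to 66692579), stood at 10.3 to 19.7 FPKM in males (median 15.03) and 4.62 to 10.4 in females (median 8.66), overlapping narrowly. MELK, a mitotic kinase gene, stood at 2.63 to 4.28 FPKM in males (median 3.66) and 1.17 to 2.61 in females (median 2.18), without overlap. Their differences were 0.88 ± 0.14 and 0.74 ± 0.13 (adjusted p = 0.000109 and 0.000653). The kinetochore genes CENPK and CENPH and the kinase gene CDK7 differed by 0.57 ± 0.12, 0.52 ± 0.13 and 0.52 ± 0.07.

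**Figure D4:**
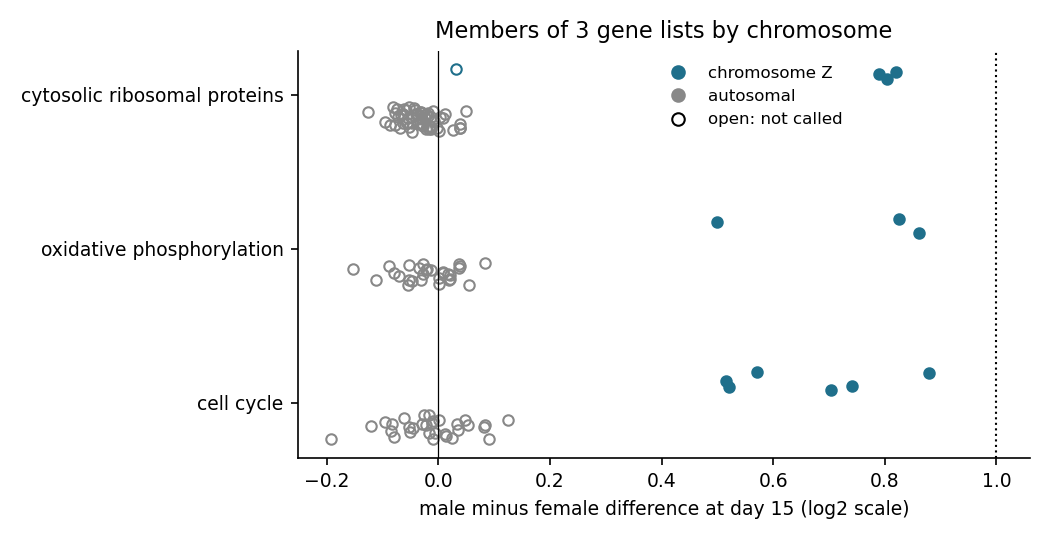
The plot shows the male minus female difference (horizontal axis, log2 scale) of each tested member of 3 gene lists, Z members in blue and autosomal members in grey, filled where called and open where not. The Z members lie between 0.50 and 0.88 except RPL37 at 0.03, and no autosomal member is called; a dotted line marks a doubling in males, and vertical scatter within a list has no meaning.

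In other lists the Z members higher in males were 1 of 3 in the growth hormone, prolactin and IGF axis, 1 of 3 in ion and water transport, and 1 of 5 in stromal fibroblasts and matrix, where 1 more (THBS4) was higher in females. Among all tested Z genes 54.6% were higher in males, and whether these small lists differ from that share was not tested. The called genes of these and of lists with a single Z member follow. HSD17B4, a peroxisomal enzyme gene that also inactivates oestradiol (ENSGALG00000002187, chromosome Z, 71751384 to 71806908), stood at 58.5 to 69.4 FPKM in males (median 63.5) and 35.01 to 46.1 in females (median 43.1), with no overlap (difference 0.59 ± 0.06, adjusted p = 6.6e-08). PRLR, the prolactin receptor gene (ENSGALG00000003446, chromosome Z, 10610212 to 10705011), stood at 4.82 to 10.5 FPKM in males (median 7.57) and 2.52 to 6.12 in females (median 4.48) and overlapped (difference 0.67 ± 0.15, adjusted p = 0.011). NEDD4L, a ubiquitin ligase gene that limits the epithelial sodium channel (ENSGALG00000034584, chromosome Z, 612902 to 742092), stood at 51.04 to 71.6 FPKM in males (median 63.1) and 35.9 to 44.5 in females (median 42.7), apart, with a difference of 0.56 ± 0.05 (adjusted p = 8.3e-08). TPM2, a tropomyosin gene of contractile cells (ENSGALG00000025842, chromosome Z, 9207127 to 9219170), was apart as well, at 282 to 424 FPKM in males (median 378) and 199 to 279.7 in females (median 254) (0.57 ± 0.07, adjusted p = 5.36e-06). FBN2, the gene of the microfibril protein fibrillin-2 (4.98 to 11.01 FPKM in males (median 8.86), 4.42 to 7.54 in females (median 5.99)), and RBP4, a retinol carrier gene (1.74 to 3.15 FPKM in males (median 2.32), 0.832 to 2.38 in females (median 1.31)), overlapped and were called (0.53 ± 0.11 and 0.76 ± 0.16; adjusted p = 0.00337 and 0.0041).

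Across the 24 lists 33 Z genes were tested, of which 18 were higher in males, 1 was higher in females (THBS4) and 14 were not called. The 18 are 54.5% of the 33, close to the 54.6% of all tested Z genes. Those not called include genes of the membrane's vessels and transport. TEK, the angiopoietin receptor gene, stood at 44.9 ± 3.64 FPKM in males and 41.8 ± 6.04 in females, with an interval of -0.05 to 0.26 that excludes the median Z difference. AQP3, a water and glycerol channel gene (104 ± 36.2 and 105 ± 30.9), SLC12A2, a chloride cotransporter gene (41.3 ± 5.31 and 39.4 ± 11.9), and LOX, a collagen crosslinking enzyme gene (50.6 ± 11.5 and 47.1 ± 16.01; means ± SD, n = 10 each), had intervals of -0.52 to 0.41, -0.17 to 0.36 and -0.22 to 0.44. All of these hold 0 and end below the median Z difference. The proteoglycan gene VCAN (8.76 ± 2.42 and 7.41 ± 2.42) had an interval of -0.14 to 0.62, which holds both.

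On the autosomes few genes differed, and by little. Of 13826 tested, 24 were higher in males (0.174%) and 44 in females (0.318%), with 972 at an unadjusted p under 0.05. The median fold among those called was 1.38 in the male direction and 1.24 in the female direction, and 3 and 5 genes passed a factor of 2. Every male was above every female in 0 genes (0%, against 1.28% of all tested genes), and every female above every male in 4 (0.0289%). With each library left out in turn the counts ran from 18 to 45 and from 27 to 52, with 45 higher in males without male 81 and 27 higher in females without female CAM15F_102. Of the 24 and 44, 14 and 21 stayed called in all 20 fits, and 50 of the 68 without female 83. The main scaling used genes of all chromosomes. With scaling from autosomal genes alone the counts were 28 higher in males and 38 in females. They were 26 and 38 with FPKM as deposited, and 23 and 47 with median ratios, so the balance of the directions moved with the scaling.

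Thrombocytes are the nucleated counterparts of platelets in birds. Of 10 tested members of their list, all autosomal, 3 were higher in males, 0 were higher in females and 7 were not called, with a median of 0.11. Among all tested autosomal genes 0.174% were higher in males and 0.318% in females. Whether the list differs from them was not tested. ITGA2B, the alpha subunit gene of the fibrinogen receptor (ENSGALG00000054766, chromosome 27, 3941850 to 3960190), stood at 30.6 to 59.1 FPKM in males (median 36.7) and 16.9 to 36.2 in females (median 22.2). Female 54, the highest, was the only female within the male range, and the difference was 0.73 ± 0.14 (adjusted p = 0.00117). GP5, the gene of platelet glycoprotein V (ENSGALG00000045125, chromosome 9, 13054465 to 13058403), stood at 1.902 to 2.97 FPKM in males (median 2.59) and 1.61 to 2.31 in females (median 1.77) (difference 0.42 ± 0.10, adjusted p = 0.0199). The groups overlapped in both, and each was called in all 20 fits that leave out a library. GP9, of the same receptor complex as GP5, had a difference of 0.69 ± 0.22 and did not pass (adjusted p = 0.118). For the abundant beta-tubulin gene TUBB1, THBS1, F13A1, F5, GP1BB and ITGB3 the differences ran from -0.17 to 0.13. At day 11 ITGA2B and GP5 differed by 0.25 and 0.03 and were not called (adjusted p = 0.744 and 0.98), and the change between the days did not pass the interaction test (adjusted p = 1 and 1). Summed FPKM of the list was 126 to 174 in females and 137 to 227 in males, with the highest value in male 81. The means were 154 ± 12.5 in females and 173 ± 24.9 in males (SD, unadjusted two-sided permutation p = 0.0404). The part of thrombocyte number in these differences was not tested.

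The 4 autosomal genes described next, also higher in males, are on none of the lists. COL2A1, the collagen gene of cartilage (ENSGALG00000030712, chromosome 33, 7292614 to 7310596), stood at 14.6 to 60.04 FPKM in males (median 31.4) and 15.3 to 29.1 in females (median 16.97), with males spread widely over the female range (difference 0.71 ± 0.18, adjusted p = 0.0211). CPXM1, a secreted carboxypeptidase-like protein gene, stood at 52.3 to 89.6 FPKM in males (median 77.1) and 42.3 to 77.3 in females (median 51.5) (0.45 ± 0.11, adjusted p = 0.0128). AGTR2, a receptor gene for angiotensin II, stood at 13.2 to 19.9 FPKM in males (median 15.03) and 9.33 to 16.2 in females (median 11.9) (0.34 ± 0.08, adjusted p = 0.0165). These genes overlapped between the sexes. The splicing factor gene RBFOX3 differed by 0.42 ± 0.11 and was called in 14 of 20 fits.

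Several calls in the male direction lay close to the threshold and were lost in many of the 20 fits that leave out a library. P2RX1, the gene of an ATP-gated channel known from platelets, stood at 12.04 to 25.99 FPKM in males (median 19.5) and 8.55 to 16.2 in females (median 13.02), and was called in 12 of them. Without female 83 its difference went from 0.60 to 0.55 and its adjusted p from 0.0305 to 0.0612. The scavenger receptor gene SCARF2 was called in 5 of the 20, and its difference was 0.42 with and without female 83 (adjusted p = 0.0417 and 0.0612). The water channel gene AQP1 was called in 8 of the 20. AQP1 stood at 132 to 184 FPKM in males (median 153) and 118 to 152 in females (median 131), a difference of 0.23 ± 0.06, and of 0.22 without female 83 (adjusted p = 0.0355 and 0.0569). It and the RNA-binding protein gene RBM43 (0.32 ± 0.08) were also lost when all 40 libraries were fitted together (adjusted p = 0.215 and 0.103).

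Most autosomal genes higher in females differed by less than a factor of 1.5 (35 of 44), yet some were very even within each sex. ENSGALG00000014589, protein-coding and without a symbol (chromosome 28, 2309232 to 2317220), singled out for the smallest p, stood at 111 to 135 FPKM in females (median 117) and 75.2 to 91.7 in males (median 81.3). Every female was above every male, and the difference was -0.55 ± 0.06 (adjusted p = 1.83e-07). The other 3 genes without overlap, also named after their values were seen, were FBXO9, a ubiquitin ligase component gene (51.4 ± 2.001 FPKM in females, 43.6 ± 2.65 in males), ZDHHC6, a palmitoyltransferase gene (77.3 ± 3.66, 64.6 ± 4.46), and TMEM230, a membrane protein gene (24.9 ± 1.91, 20.8 ± 0.955; means ± SD, n = 10 each). SMC6, of a complex that guards chromosome structure (ENSGALG00000016467, chromosome 3, 100135676 to 100170579), stood at 9.07 to 12.3 FPKM in females (median 11.4) and 6.89 to 10.3 in males (median 8.53) (difference -0.37 ± 0.06, adjusted p = 0.000408). The ligase regulator gene GLMN differed by -0.34 ± 0.08 and the cohesin gene STAG3, known from meiosis, by -0.31 ± 0.07.

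Further female-higher genes follow, some of them with larger and noisier differences. PLN, the gene of phospholamban, which restrains the calcium pump of muscle (ENSGALG00000027583, chromosome 3, 62988800 to 62988958), stood at 2.37 to 9.98 FPKM in females (median 5.48) and 0.734 to 8.98 in males (median 1.799). The highest male, at 8.98, was among the upper females, and the difference was -1.42 ± 0.35 (adjusted p = 0.0187, and 0.0584 with all 40 libraries fitted together). It lies in CEP85L on the opposite strand, and the 2 may share reads. ALCAM, a cell adhesion gene (ENSGALG00000015348, chromosome 1, 87615066 to 87731006), stood at 58.7 to 93.8 FPKM in females (median 72.4) and 44.1 to 74 in males (median 56.7), overlapping, with a difference of -0.38 ± 0.09 (adjusted p = 0.0152). TMCO4, a membrane protein gene, differed by -0.47 ± 0.10 and GRIP1, a receptor scaffold gene, by -0.76 ± 0.19. HBZ, the embryonic zeta-type globin gene (1.17 to 7.37 FPKM in females (median 2.75), 0.393 to 3.07 in males (median 1.09)), differed by -1.33 ± 0.37 and was called in 6 of 20 fits. It was the only one of 16 tested erythroid genes that was called. POSTN, which encodes the matrix protein periostin (5.37 to 11.9 FPKM in females (median 9.55), 3.74 to 9.61 in males (median 5.89)), and UCHL1, a deubiquitinase gene (2.34 to 3.501 FPKM in females (median 2.91), 1.32 to 2.92 in males (median 2.13)), differed by -0.63 ± 0.17 and -0.48 ± 0.13. They were called in 9 and 11 of the 20 fits that leave out a library. Without female 83 the differences were -0.58 and -0.45 (adjusted p = 0.0658 and 0.0655), and both calls were also lost with all 40 libraries fitted together (0.294 and 0.0539). POSTN was the only called member among 28 autosomal genes of stromal fibroblasts and matrix, whose median of 0.16 lay in the male direction.

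**Figure D5:**
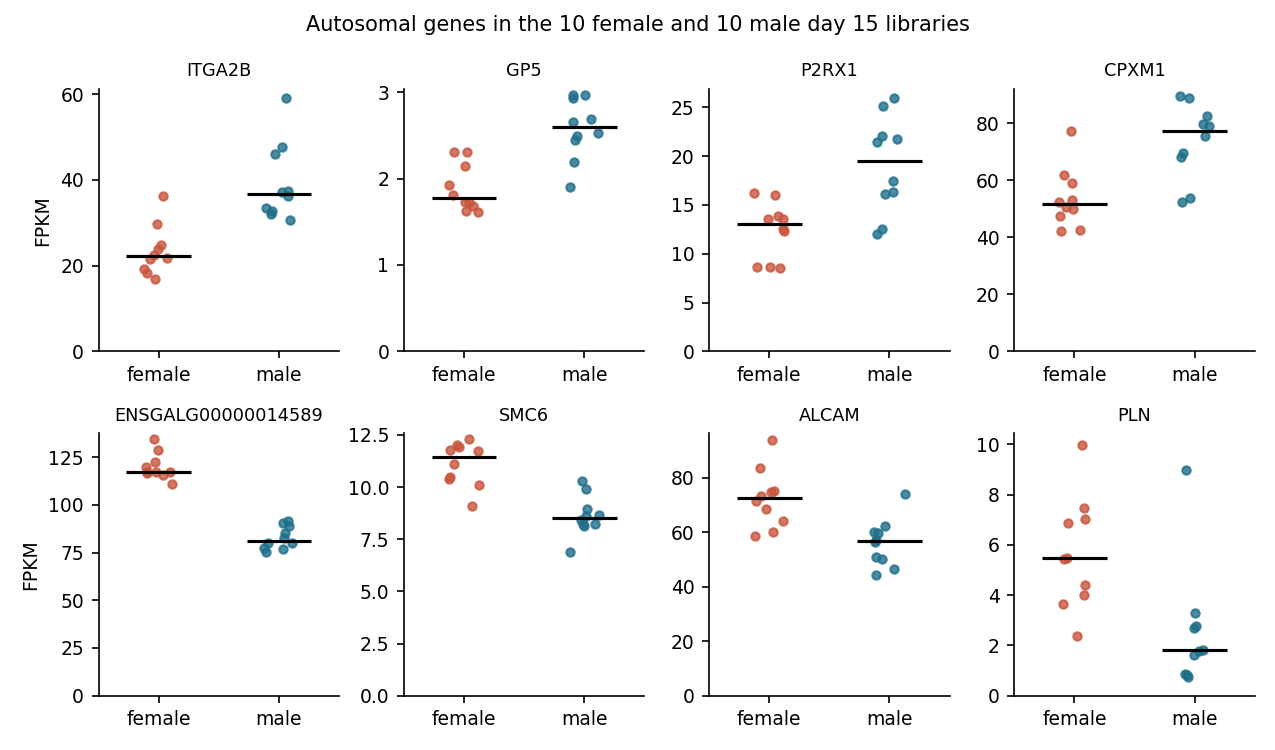
The plot shows FPKM (vertical axes, from 0) of 8 autosomal genes in the 10 female (red) and 10 male (blue) day 15 libraries, 1 point each with a bar at the median. ITGA2B, GP5, P2RX1 and CPXM1 are higher in males, ENSGALG00000014589, SMC6, ALCAM and PLN in females, and only ENSGALG00000014589 has no overlap, at 111 to 135 against 75.2 to 91.7.

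Over the 24 lists 473 autosomal genes were tested, of which 6 were called (1.27%, against 0.492% of all autosomal genes). Of these 4 were higher in males (among them ITGA2B, GP5 and AQP1) and 2 in females (HBZ, POSTN), with 45 of the 473 at an unadjusted p under 0.05 (9.51%, against 7.03% of all autosomal genes). In 20 lists limma called 0 autosomal members, with 0 to 5 each at an unadjusted p under 0.05 and medians from -0.39 to 0.10. These were the lists of sex determination and gonad (10 autosomal genes tested), steroid synthesis and receptors (18), the growth hormone, prolactin and IGF axis (10), interferon and antigen presentation (29), innate defence (23), calcium handling (20), acid secretion (29), angiogenesis and endothelium (35), smooth muscle (17), epithelium (26), cell cycle (31), hypoxia and glycolysis (23), oxidative phosphorylation (29), ribosomal proteins (58), leukocytes (20), pancreatic acinar cells (6), liver and yolk sac (7), skeletal and cardiac muscle (10), neural crest, glia and neurons (7), and gonad and kidney (4). The lowest median was that of the pancreatic list, whose gene CPA1 was high in female 83. In the list of stromal fibroblasts and matrix 1 of 28 autosomal members was called, 10 had an unadjusted p under 0.05, and the median was 0.16. The called member, POSTN, was higher in females, whereas that median lay in the male direction. In ion and water transport 1 of 19 was called.

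VEGFA, the main endothelial growth factor gene, stood at 17.4 to 43.6 FPKM in males (median 28.1) and 22.1 to 44.5 in females (median 31.5), with an interval of -0.46 to 0.20. The interferon receptor genes IFNAR1 and IFNAR2 had intervals of -0.15 to 0.15 and -0.05 to 0.16. The ranges of the sexes overlapped almost fully in all of these. ESR1, the oestrogen receptor gene, was below the level needed for a test, with medians of 0.316 FPKM in males and 0.288 in females, and CYP19A1, the aromatase gene, was listed at 0 in all 20 libraries.

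Models without a chromosome, whose place on W or elsewhere was not tested, included some near 0 in males, as most W genes were. Of 1180 tested, 18 were higher in males (1.53%) and 24 in females (2.03%), all of them assembled models with no position in the files. In 22 of the 24 the difference was at least 2-fold, and in 21 every female lay above every male (1.78%, against 0.483% of all tested genes). Models near 0 in males could pass the filter only through the female libraries. For those models the separation was largely fixed by the filter and is a description. XLOC_027736 and XLOC_027719, chosen after their values were seen, stood at 8.02 to 21 FPKM in females (median 13.2) and 10.1 to 16.1 FPKM in females (median 11.3), and at no more than 0.0857 and 0.0884 FPKM in males. XLOC_028444, of the opposite kind and also chosen after its values were seen, stood at 0.632 to 1.75 FPKM in males (median 0.904). In females it stood at 0.167 to 0.551 (median 0.418), without overlap. With most females below 0.5 FPKM it passed the filter through the male libraries, so its separation is a description as well. The count of 42 called models was 66 with no filter on low values and 20 with a stricter one.

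The day 11 values come from the fit over 40 libraries and the day 15 values from that over 20. Both cover the genes that passed the filter on the day 15 libraries. The day 11 contrast called 3.52% of all tested genes and 383 Z genes (56.8%), and 338 were called on both days, 87.8% of those of day 15 and 88.3% of those of day 11, all in the same direction. The median Z difference was 0.50 at day 11. All 50 W genes were called on both days (100%). On the autosomes 77 genes were called at day 11 (0.557%), 11 higher in males and 66 in females, and 17 were called on both days, 25% of the day 15 and 22.1% of the day 11 calls. Of the 68 called at day 15, 59 had the same sign at day 11. The median over all tested autosomal genes was -0.02 on both days. Their share with the same sign was not computed, so the count of 59 is a description. Of the 17, 16 were higher in females, among them ENSGALG00000014589, SMC6, FBXO9, ZDHHC6, TMEM230, STAG3 and GLMN. For ENSGALG00000014589 the difference was -0.55 at day 11 and -0.55 at day 15.

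The sex difference itself changed between the days in 3 of 15746 genes (0.0191%; 491 at an unadjusted p under 0.05), of which 2 lie on Z. TMOD1 differed by 0.89 at day 11 and 1.61 at day 15, a change of 0.73 ± 0.12 (adjusted p = 0.00474). Its level was 12.9 ± 1.17 FPKM in day 11 males and 12.05 ± 1.91 in day 15 males, and 6.91 ± 0.888 in day 11 females and 3.82 ± 0.322 in day 15 females (mean ± SD, n = 10 each). The long non-coding RNA ENSGALG00000048050 (chromosome Z, 26172920 to 26177361), in the stretch with female-higher genes, stood at 3.67 to 16.6 FPKM in females (median 8.55) and 0.584 to 6.17 in males (median 2.06) at day 15. Its means at day 11 were 2.29 ± 1.30 FPKM in females and 2.77 ± 0.608 in males, and the change was -2.29 ± 0.41 (adjusted p = 0.00987). XLOC_027758 was listed at 0 in all males of both days and stood in females at 3.26 ± 0.914 FPKM at day 11 and 0.609 ± 0.3404 at day 15 (adjusted p = 0.00013). No autosomal gene was called (0 by limma, 387 at an unadjusted p under 0.05).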

How the data were processed

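The deposited table gives FPKM for 26152 gene models in 40 libraries. HISAT2, HTSeq and the genome build GRCg6a are named in the submitters' processing notes; their versions, the strand setting and any sequencing batch were not given in the sources used here. The unit follows from the numbers: in the 15718 genes with a single transcript, every value below the worth of 200 reads came out whole (tolerance 0.01) when divided by the worth of 1 read, which gives the implied depth. FPKM and RPKM could not be told apart. Column names gave every sample (0 left over), and 0 pairs held identical values. A pair of columns gives only the last digits of embryo numbers 102 and 100.

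FPKM of the 20 day 15 libraries were scaled by a trimmed mean of log ratios (30% and 5% trimmed), log2-transformed with a pseudocount of 0.1 and fitted with limma 3.58.1 (R 4.3.3, intensity trend, robust moderation; ± after a difference is its SE, intervals are 95%). Day 11 and the interaction were fitted over all 40 libraries with 4 group means. Single values per library used permutation tests (SciPy 1.17.1, 100000 resamples). Each embryo gave 1 library, so p-values cover spread between embryos. Chromosome, symbol and biotype come from the deposited annotation. The limma step was tested on simulated data. Calls at low levels are limited by depth: 1 read is a large part of a low FPKM.

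The comparison, its members, the 24 lists (691 genes) and the naming rule were chosen with earlier results of these data known. The rule took the 8 most abundant W genes and gametologs, Z genes (10 higher in males, 8 in females, 6 nearest to 0), 10 autosomal genes in each direction, up to 4 called members of a list and a few fixed genes, above stated levels. Alternatives were pseudocounts of 1 and 0.01, other filters and scalings, all 40 libraries, embryo number as a covariate, no moderation trend, and each library left out. No sequence is printed, and RefSeq coordinates, from another build, were not used. Values of some genes of the lists are not reported here.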

Additional observations from a re-analysis of the deposited data

Results flagged for a closer look

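Chance puts about 1 in 20 groups of 10 past the criterion used here for a library far from its group, against 25 of 178 groups here (14%), many of which share libraries, and no cause was tested for any of these values. Male 81 stood apart most often. It was the highest male in RPS6 (3069 FPKM, the other males at most 2543), RPL17 (1417), RPS23 (2771) and NDUFAF2 (30.9), and in the haemoglobin share (7.61%). It was the lowest male in GHR (13.5 FPKM), FBN2 (4.98) and the W model ENSGALG00000047434 (1.31). Female 83 was the highest female in FBP1 (66.9 FPKM), TMED7 (53.1) and the Z non-coding RNA ENSGALG00000046481 (13.2), and the lowest in ENSGALG00000047434 (1.01) and in the mitochondrial share (7.63%).

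Other libraries stood apart in single genes. Male 52 was lowest in TPM2 (281.7 FPKM) and SMAD2Z (20.8), female 54 was lowest in SMAD2Z (12.2) and GLMN (6.38), female 95 in NEDD4L (35.9) and female 70 in the W model ENSGALG00000048307 (13.5), and female 74 was highest in COL2A1 (29.1). At levels near 0 in males, male 86 was highest in the W model ENSGALG00000043758 (0.857 FPKM) and in XLOC_027719 (0.0884), male 76 in ENSGALG00000048286 (1.17), male 52 in ENSGALG00000048307 (0.162) and male 98 in the Z non-coding RNA ENSGALG00000050012 (0.227).

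The sex difference differed between the days, by the interaction test, in TMOD1 (day 15 minus day 11, 0.73), in ENSGALG00000048050 (-2.29) and in XLOC_027758 (2.35, listed at 0 in all males, so that the last value depends on the pseudocount).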

How the results depend on the processing

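No paired analysis was possible because the replicate numbers are embryo numbers and no number is shared between the groups compared. Apart from the values given here and next, counts stayed within 1.5 times those reported, no result changed direction, and the Z level per library and the SPIN1 sum (0.55 to 0.56) kept their side of the threshold under every alternative tried. The median Z difference of 0.46 was 0.35 with a pseudocount of 1 and 0.27 with no filter on low values. With a pseudocount of 1, 36 Z intervals held 1 and not 0, against 105, and with no filter 479 held 0 and not 1, against 163. Models without a chromosome gave 66 calls with no filter and 20 with at least 1 FPKM in 10 libraries, against 42; the no-filter fit tests more genes and the stricter one fewer, and otherwise the cause was not tested. The interaction gave 4 calls with at least 0.5 FPKM in 10 of the 40 libraries and 3 without female 83. The Z level difference was 0.41 with means in place of medians.

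With each library left out in turn, all calls numbered 495 to 578, autosomal genes higher in males 18 to 45 (45 without male 81), those higher in females 27 to 52 (27 without female CAM15F_102), Z genes higher in males 338 to 379, Z genes higher in females 12 to 17, W genes higher in females 49 to 49, and models without a chromosome 37 to 45. The median Z difference ran from 0.44 to 0.47, and the intervals between 0 and 1 numbered 343 to 374, those holding 1 and not 0 98 to 115, and those holding 0 and not 1 154 to 177. Without female 83, 533 genes were called, 503 of them among the 545. Of 84 genes taken by the naming rule or singled out outside it, 76 stayed called or uncalled without female 83 and 79 with all 40 libraries fitted together. As deposited, or scaled by autosomal genes or by median ratios, all 84 did.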

Other observations

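Further autosomal genes, chosen after their values were seen, were higher in females on both days by small amounts. SMARCA1, a nucleosome remodeller gene, stood at 21.1 ± 1.77 FPKM in females and 17.98 ± 2.15 in males at day 15 (mean ± SD, n = 10 each, here and below), a difference of -0.25 at day 15 and -0.33 at day 11 (limma adjusted p = 0.0145 and 0.00138). SS18, of another remodelling complex, stood at 59.1 ± 3.19 and 52.4 ± 4.03 (-0.19 and -0.19), and UBE2E1, a ubiquitin-conjugating enzyme gene, at 29.8 ± 1.85 and 26.4 ± 1.79 (-0.19 and -0.22). SPG7, a mitochondrial protease gene, stood at 63.05 ± 2.13 and 57.7 ± 1.93 (-0.14 and -0.17). CETN1, a centrin gene, stood at 31.5 ± 3.23 and 26.2 ± 3.42 (-0.28 and -0.37). The smallest difference of the 16 was that of CPNE1, a copine gene, at 46.5 ± 1.63 and 43.6 ± 1.52 (-0.10 and -0.12). The gene called on both days in the other direction was ENSGALG00000046729, at 9.38 ± 1.42 FPKM in males and 6.83 ± 1.47 in females.

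PTHLH, the gene of a parathyroid hormone-related protein that regulates calcium transport, lay below the level set for naming. It stood at 0.2897 ± 0.189 FPKM in males and 0.892 ± 0.594 in females at day 15 and was called in all 20 fits that leave out a library (-1.34 ± 0.33, SE; limma adjusted p = 0.0189). At day 11 its difference was -0.41 (adjusted p = 0.781).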
